A study of Mus musculus with 47 samples.

Results

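The gastrocnemius, the large calf muscle, was compared between male C57BL/6J mice on a methionine-restricted diet (5 libraries) and mice on the control diet (6 libraries). These are 11 of the 47 libraries of a study that also sampled liver, brown fat (BAT) and inguinal white fat (IWAT) of the same animals, and they were chosen by the tissue and diet given in their titles. The mice entered the experiment at 5 weeks of age and ate their diet freely for 11 weeks at 23 °C. Tissue was taken after a fast of 5 h in both groups. The labels do not give the methionine content of either diet. The labels name no genetic alteration and no drug in either group, and each library is 1 animal. Libraries are named here by diet and animal number (MR for restricted, CON for control). The restricted group is 1 animal short of the group used for the other tissues. The 47 libraries include no muscle library of that animal. Against the muscle label, all 13 skeletal muscle fibre markers were detected.

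Methionine is an essential amino acid, and restricting it in the diet of rodents lowers fat mass and alters lipid metabolism in liver and fat. Cells sense a shortage of amino acids through the kinase GCN2 and the transcription factor ATF4, which induces genes of amino acid synthesis such as Asns, the asparagine synthetase. In skeletal muscle, slow (type I) fibres carry the myosin heavy chain Myh7 with their own troponins and light chains, and fast (type II) fibres carry Myh2, Myh1 or Myh4. The mouse gastrocnemius is a mostly fast muscle.

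The libraries are SAGE libraries: each messenger RNA is read as a short tag that starts at a cutting site of the enzyme NlaIII (CATG) near its 3′ end, so a gene is measured by a tag rather than by its whole length. The tags below are those predicted from the last CATG of the longest GENCODE vM1 transcript of the genes on which the results turn, 5′ to 3′ on the strand of the transcript. They are shown because counts rest on tags and not on whole transcripts. The distance of a tag from the transcript end also went with the median deviation of 1 library, described below. Capitals mark the NlaIII site.

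Myh7: CATGaggaagagtgagcggcgcatcaa
Myh2: CATGcgcctgtgtgattctattccatc
Myh1: CATGagagaagagtgaaagaactcact
Myh4: CATGgagcagaccgtgaaggacctgca
Tnnc1: CATGaagggtgtggagtagatgctggt
Myl3: CATGtctggagcttcgggaaggagtgg
Myl2: CATGttgtggtgactccccaaacataa
Sln: CATGttttctaaagatgctgttcttgt
Acta1: CATGaagatcaagatcatcgccccccc
Asns: CATGaaaagaaataaaagtttcacatc

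The 4 myosin tags shown differed from each other at 13 to 19 of the 23 bases after the site. Over all transcripts of a gene, 1 tag was predicted for Myh2, 2 for Myh4, 2 for Myh7 and 3 for Myh1. Myl2 had 3 and Asns 4. Which of them was counted was not tested, and the distances below hold for the longest transcript only. The Myh4 tag is also held by a Myh2 transcript, so these 2 counts could be shared. The site lay 72 bases from the transcript end in Myh2, 318 in Myh7, 388 in Myh1 and 560 in Myh4. It lay 32 bases from the end in Asns and 397 in Acta1, the skeletal muscle actin.

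Depth was even, with 7756320 to 12829112 tags assigned to genes per library, but 1 restricted library stood apart from all others before any comparison. In MR3101, 11144 genes were detected, against 14676 to 16058 in the other 10 libraries. Its median Spearman correlation of log2 CPM with the other libraries was 0.582, against 0.928 to 0.955 for those. Acta1 held 0.00115% of the tags in MR3101 and 0.107% to 0.349% elsewhere. Ckm, the muscle creatine kinase, held 0.512% in MR3101 and 5.24% to 10.5% elsewhere, while Myl1, a fast light chain, held 8.51% in MR3101 and 4.44% to 8.77% elsewhere. In the median over genes, the deviation followed the position of the tag. Its Spearman correlation with the distance from the transcript end was −0.49 in MR3101. Single genes departed from this: Ckm, with a site 36 bases from the end, and Myl2, at 48 bases, were low in MR3101. For the 1071 tested genes with a site within 50 bases of the end, the median deviation of MR3101 from the other libraries was 1.56 on the log2 CPM scale. For the 308 genes with a site more than 800 bases away it was −3.26. In each of the other libraries these medians lay between −0.126 and 0.153. Tags rich in G and C were also low in MR3101, with a median deviation of −3.26 above 60% GC and 1.17 at 30% or less. Fold changes in muscle are therefore given with all 11 libraries and without MR3101. Apart from it, MR3104, CON3114 and CON3115 correlated with each other at 0.972 to 0.98 and with the remaining 7 at 0.898 to 0.947. The labels name no batch for these 3.

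**Figure D1:**
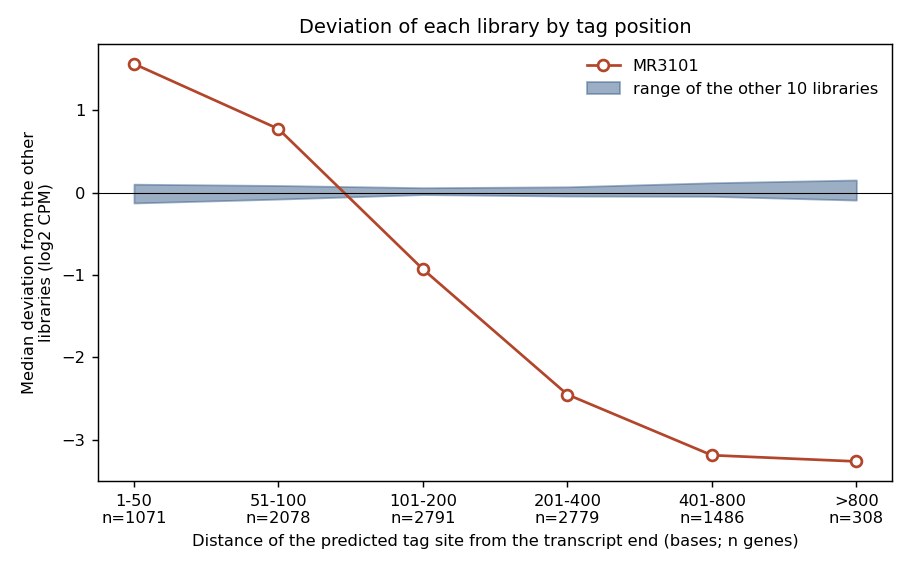
Median deviation of a library from the other libraries (log2 CPM, vertical axis) for genes grouped by the distance of the predicted tag site from the transcript end (bases, horizontal axis). Open points are MR3101, which lies at 1.56 in the nearest group and −3.26 in the farthest, and the band is the range of the other 10 libraries, within −0.126 to 0.153.

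No gene of the gastrocnemius passed an adjusted p of 0.05 between restricted and control mice. With 11 libraries, 0 of 11225 genes tested passed (0%), and the lowest adjusted p was 0.764 (edgeR's quasi-likelihood test with Benjamini-Hochberg adjustment). Without MR3101, 0 of 11395 passed (0%), with a lowest adjusted p of 0.9999 by the same edgeR test. DESeq2, limma voom and limma on the authors' normalized values also called 0 genes in both sets. At an unadjusted p under 0.05, 709 genes (6.32%) stood out with 11 libraries, 632 (5.63%) higher and 77 (0.686%) lower in restricted muscle. Without MR3101 the number was 367 (3.22%), of which 186 (1.63%) were higher and 181 (1.59%) lower. Leaving out each library in turn with 11 libraries gave 186 (without MR3101) to 991 (without MR3104) higher and 40 to 181 lower genes. Starting without MR3101, it gave 64 (without MR3109) to 468 (without MR3104) higher and 129 to 304 lower. The percentages are the background for every later count of list members at an unadjusted p under 0.05.

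Single libraries set many of these unadjusted counts. MR3101 was the highest of the 11 libraries for 561 of the 632 genes (88.8%), and for 29.8% of all genes tested. Among genes with a site within 50 bases of the end, 17.4% were higher at an unadjusted p under 0.05 with MR3101 and 1.96% without it. Without MR3101, MR3109 was the highest library for 146 of the 186 genes (78.5%), and for 16.9% of all genes tested. Of the genes tested in both sets, 86 were higher in both, out of 632 and 180, and 70 were lower in both, out of 77 and 178. The precision also differed. The 95% interval of a gene's fold change reached 1.04 log2 units (2.05-fold) to either side of the estimate in the median with 11 libraries, and 0.61 (1.53-fold) without MR3101. That half-width was under 1 for 46.5% of genes with 11 libraries and 90.3% without MR3101.

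Of the 27 pathway lists, genes of slow muscle fibres had the lowest median fold change in restricted against control muscle. The lists were chosen with earlier results of these data known, so this rank is descriptive. Their members also moved together by library. Without MR3101, CON3107 was among the 4 highest libraries for 14 slow genes and CON3106 among the 4 lowest for 12. All 14 members had a log2 fold change below 0 in both sets, with a median of −1.34 (11 libraries) and −1.14 (without MR3101), against −0.04 and 0.02 over all genes tested. Over all genes tested, 6009 of 11225 were below 0 with 11 libraries and 5245 of 11395 without MR3101. None of the 14 members passed the adjusted threshold. At an unadjusted p under 0.05, 7 of the 14 were lower with 11 libraries (0.686% of all genes) and 6 without MR3101 (1.59% of all genes). In bulk muscle, fewer slow fibres in the tissue sampled and less slow-fibre RNA per fibre cannot be told apart.

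Myh7 (GRCm38, chr14:54970684-54994626), the slow myosin heavy chain, had 0, 10.4, 13.1, 9.99 and 3.25 CPM in MR3101, MR3102, MR3104, MR3109 and MR3116. The control libraries had 38.8, 10.7, 60.5, 61.4, 10.2 and 36.0 CPM in CON3103, CON3106, CON3107, CON3112, CON3114 and CON3115. The groups overlapped: CON3106 and CON3114 lay within the restricted range and the other 4 controls lay above it. Without MR3101 the mean was 9.19 ± 4.19 CPM in restricted muscle (SD, n = 4) and 36.3 ± 22.6 CPM in control muscle (SD, n = 6). Restricted over control, the log2 fold change was −1.99 with a standard error of 0.56 and a 95% interval of −3.20 to −0.77, at an unadjusted p of 0.00375 in edgeR. With MR3101 it was −2.29.

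Tnnc1 (chr14:31208312-31211729), the troponin C of slow and cardiac muscle, had 1.37, 159, 163, 174 and 55.9 CPM in the restricted libraries, in the same order. The controls had 412, 112, 828, 345, 230 and 1019 CPM in their order above. Only CON3106 overlapped the restricted libraries. For Tnnc1 the log2 fold change was −2.15 with 11 libraries and −1.82 without MR3101 (95% interval −3.04 to −0.61).

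Myl3 (chr9:110763678-110769802), a slow essential light chain, had 105, 733, 1685, 880 and 609 CPM in restricted muscle and 1873, 719, 4742, 2409, 2607 and 7090 CPM in control muscle. CON3106 was again the one control inside the restricted range. For Myl3 the log2 fold change was −2.01 with 11 libraries and −1.72 without MR3101 (95% interval −2.89 to −0.56). Myl2, the slow regulatory light chain, had 0.196 CPM in MR3101 and 67.3 to 161 CPM in the other restricted libraries, against a control range of 88.6 to 916 CPM with a median of 358. All restricted libraries lay below that median. For Myl2 the log2 fold change was −2.05 with 11 libraries and −1.73 without MR3101 (95% interval −2.94 to −0.51). Tnnt1, the slow troponin T, and Myh7b, a related slow myosin, had log2 fold changes of −1.35 and −1.33 with 11 libraries and −1.39 and −1.14 without MR3101. Tnni1, the slow troponin I, had −1.79 with 11 libraries and −1.51 without MR3101. The Z-disc and M-band genes Myoz2, Csrp3 and Myom3 had −1.26, −0.97 and −1.42 with 11 libraries and −0.94, −0.65 and −1.14 without MR3101. The smallest differences were those of Tpm3, Mybpc1, Actn2 and Ankrd2, between −0.72 and −0.48 with 11 libraries and between −0.40 and −0.30 without MR3101.

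Sln (chr9:53850251-53853849) had the smallest unadjusted p of the calcium-handling genes. It encodes sarcolipin, a small inhibitor of the calcium pump of the sarcoplasmic reticulum that is carried mostly by slow and atrial muscle. Restricted libraries had 3.93, 5.25, 4.93, 8.34 and 4.45 CPM, and controls 25.1, 14.3, 123, 27.4, 5.67 and 57.4 CPM. CON3114 overlapped the restricted libraries, and the other 5 controls lay above all of them. The log2 fold change was −2.96 with 11 libraries and −2.87 without MR3101 (standard error 0.72, 95% interval −4.44 to −1.31, unadjusted p 0.00165 in edgeR). Its adjusted p was 0.764 and 0.9999 in edgeR (Benjamini-Hochberg) and 0.0513 and 0.0502 in DESeq2.

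**Figure D2:**
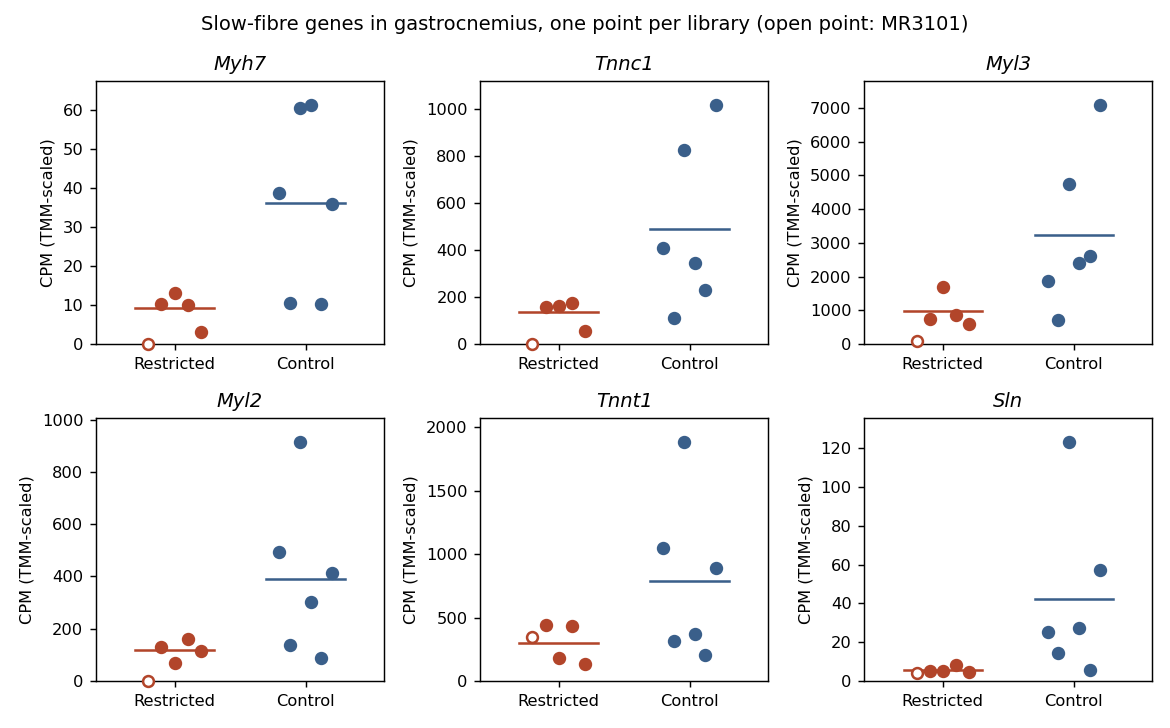
CPM of genes of the slow-fibre list (Myh7, Tnnc1, Myl3, Myl2 and Tnnt1) and of Sln, of the calcium-handling list, in each gastrocnemius library. Restricted libraries are on the left and controls on the right. Bars are group means without MR3101, which is the open point. For Myh7 the restricted libraries sit at 0 to 13.1 CPM and the controls spread over 10.2 to 61.4 CPM.

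The spread among control animals was wide. The summed CPM of the 14 slow genes was 484, 2192, 2980, 2458 and 1874 in restricted libraries and 5149, 1990, 10155, 4706, 4175 and 10804 in control libraries. For every 1000 CPM of fast-fibre genes, the slow genes had 13.8, 15.2, 24.6 and 13.9 CPM in MR3102, MR3104, MR3109 and MR3116, against 42.3, 12.3, 103, 37.2, 20.7 and 68.7 CPM in the controls. On this ratio CON3106 lay below all 4 restricted libraries and CON3114 within their range, while on the summed CPM only CON3106 lay within the restricted range. Of the 11 libraries, leaving out CON3107 had the largest effect on the number of members: with the other 10 the list's median was −1.06 and 2 of 14 members were lower at an unadjusted p under 0.05. Without both CON3107 and MR3101 the median was −0.87 with 4 members. With 11 libraries, leaving out MR3104, MR3116 or CON3103 gave 4 members. Without MR3101 but also without CON3106, 9 members were lower and the median was −1.31. A term for MR3104, CON3114 and CON3115 left the median at −1.14 and gave 10 members.

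Fast-fibre genes had a median near 0. Over the 15 members it was −0.26 with 11 libraries and 0.06 without MR3101, and 0 members had an unadjusted p under 0.05. Myh4 (chr11:67237812-67260447), the fastest myosin heavy chain, had 17.9, 3095, 2719, 1880 and 2514 CPM in restricted libraries, against a control range of 1909 to 3428 CPM with a median of 2777. MR3101 was far below all the others, which overlapped between the diets. For Myh4 the log2 fold change was −0.42 with 11 libraries and −0.10 without MR3101 (95% interval −0.56 to 0.37). Myh1 and Myh2, the heavy chains of the other fast fibre types, had log2 fold changes of −0.46 and −0.59 with 11 libraries. Without MR3101 these were −0.13 (95% interval −0.83 to 0.56) and −0.70 (95% interval −1.67 to 0.27).

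A few lipogenesis genes were lower in restricted muscle at the unadjusted level. Of 20 lipogenesis genes tested with 11 libraries 2 were lower at an unadjusted p under 0.05, and of 21 tested without MR3101 5 were. Of 40 genes of fatty acid uptake and oxidation, 0 passed an unadjusted p of 0.05 with 11 libraries, and 1 was higher and 1 lower without MR3101. Scd1 (chr19:44394450-44407709), the stearoyl-CoA desaturase, had 172, 83.9, 131, 503 and 259 CPM in restricted libraries and 1332, 619, 942, 145, 418 and 538 CPM in control libraries. CON3112 was within the restricted range, as was CON3114, and the other 4 controls were above it. For Scd1 the log2 fold change was −1.54 with 11 libraries and −1.43 without MR3101 (95% interval −2.72 to −0.15). Fasn, the fatty acid synthase, had 5.10 to 51.8 CPM in restricted libraries and 26.2 to 308 CPM in controls, with a log2 fold change of −2.04 with 11 libraries and −1.77 without MR3101. Acaca, the acetyl-CoA carboxylase upstream of it, had −1.09 with 11 libraries and −0.79 without MR3101.

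Adipocyte markers were lower beside these genes. Scd1 is itself one of the listed markers, so the marker result is not separate from the lipid genes. Lep, the fat hormone leptin, had 0, 0.571, 1.12, 2.85 and 3.43 CPM in restricted libraries and 12.1, 14.6, 17.9, 0.351, 5.85 and 13.8 CPM in controls, and all but CON3112 lay above the restricted libraries. The log2 fold change of Lep was −2.69 with 11 libraries and −2.39 without MR3101. Over the 11 adipocyte markers tested, the median log2 fold change was −0.88 with 11 libraries and −1.06 without MR3101, and 3 were lower at an unadjusted p under 0.05 in each set. The summed CPM of the 12 listed markers, Scd1 included, was 763 to 1631 in restricted libraries and 717 to 3014 in controls. CON3112 was lowest, and Adig was at 0 in all. The part of fat tissue in the lipid genes was not tested.

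Matrix genes and fibroblast markers were mostly below control as well. Of 40 extracellular matrix genes tested without MR3101, 36 had a log2 fold change below 0, with a median of −0.26, and 6 were lower at an unadjusted p under 0.05. With 11 libraries 29 of 39 were below 0, the median was −0.31 and 3 were lower at that level. Over all genes tested, 6009 of 11225 were below 0 with 11 libraries and 5245 of 11395 without MR3101. Postn, the matrix protein periostin, had 3.14, 9.13, 10.2, 17.9 and 9.51 CPM in restricted libraries and 13.6 to 28.7 CPM (median 22.0) in controls, with MR3109 inside the control range. Its log2 fold change was −1.13 with 11 libraries and −0.89 without MR3101 (95% interval −1.50 to −0.28). Eln, which encodes elastin, and Mgp, matrix Gla protein, had −0.75 and −0.65 with 11 libraries and −0.63 and −0.55 without MR3101. All 12 fibroblast and tendon markers were below 0 without MR3101, with a median of −0.63 and 4 lower at an unadjusted p under 0.05. With 11 libraries 8 of the 12 were below 0, with a median of −0.30 and 2 lower. Their summed CPM was 3771 in MR3101, 916 to 1145 in the other restricted libraries and 1162 to 2483 in controls. The part of connective tissue in the matrix result was not tested.

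Genes of the amino acid stress response had medians slightly below 0 in restricted muscle. The median over 36 ATF4 target genes was −0.15 with 11 libraries and −0.12 without MR3101, and 0 were higher at an unadjusted p under 0.05 in either set. Asns (chr6:7675165-7693209) had 28.3, 4.57, 9.31, 7.13 and 7.71 CPM in restricted libraries and 9.47, 6.02, 11.5, 6.40, 8.51 and 10.7 CPM in controls. The groups overlapped, and MR3101 alone was above the controls. For Asns the log2 fold change was 0.37 with 11 libraries and −0.28 without MR3101 (standard error 0.26, 95% interval −0.83 to 0.27). Psat1, of serine synthesis, and Trib3, an inhibitor that ATF4 induces, had 0.11 and −0.26 with 11 libraries and −0.30 and −0.40 without MR3101, all with intervals across 0. Mars, the methionyl-tRNA synthetase, had 0.59 with 11 libraries and −0.14 without MR3101.

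Without MR3101, 1 of the 36 ATF4 targets had an unadjusted p under 0.05, and it was lower. Chac1 (chr2:119351242-119354326), which degrades glutathione, had 0, 12.4, 14.1, 11.0 and 15.8 CPM in restricted libraries and 46.7, 21.7, 26.9, 18.1, 21.9 and 25.7 CPM in controls. The groups did not overlap, in a gene named for its small unadjusted p. Its log2 fold change was −1.32 with 11 libraries and −1.01 without MR3101 (95% interval −1.58 to −0.43, unadjusted p 0.00224 in edgeR, adjusted p 0.9999 after Benjamini-Hochberg adjustment). Of 3 further genes of this response, Fgf21 had 1 count in CON3114 and 0 in the other 10 libraries, which allows up to 0.225 to 0.589 CPM in a library (3 counts, counting error only). Gdf15 had 0 to 4 counts in restricted and 0 to 5 in control libraries, and Phgdh 0 to 3 and 0 to 1, too few to test.

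Methionine and sulfur metabolism gave a median of −0.22 over 25 genes with 11 libraries and −0.06 without MR3101, where 0 passed an unadjusted p of 0.05. With MR3101, Mthfd1, a folate enzyme, was higher and Cdo1, the cysteine dioxygenase, lower at that level. Mthfd1 had 390 CPM in MR3101 and 16.4 to 32.6 CPM in the other restricted libraries, against 10.8 to 37.5 CPM in controls.

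Some mitochondrial genes were higher at the unadjusted level only when MR3101 was included. Idh3a, of the TCA cycle, had 23830 CPM in MR3101, 1140 to 2313 CPM in the other restricted libraries and 898 to 1640 CPM in controls. Its log2 fold change was 2.21 with 11 libraries and 0.28 without MR3101. Cox6c, of respiratory complex IV, had 27257 CPM in MR3101 and 1879 to 4339 CPM in the other restricted libraries, against 2235 to 2557 CPM in controls. Cox6c had a log2 fold change of 1.70 with 11 libraries and 0.28 without MR3101. At an unadjusted p under 0.05, 2 of 52 genes of oxidative phosphorylation and 3 of 28 of the TCA cycle were higher with 11 libraries, and 0 of either without MR3101. The medians of these lists were −0.16 and −0.003 with 11 libraries, and both were −0.01 without MR3101. Pdk4, which switches muscle from glucose to fat oxidation, had 299, 230, 716, 400 and 235 CPM in restricted libraries and 475 to 820 CPM (median 687) in controls. Only MR3104 was inside the control range, and the log2 fold change was −0.81 with 11 libraries and −0.74 without MR3101 (95% interval −1.43 to −0.04). Ppargc1a, the mitochondrial coactivator, had −0.38 with 11 libraries and −0.36 without MR3101 (95% interval −0.81 to 0.09). Ucp3, a mitochondrial uncoupling protein of muscle, had a different sign in the 2 sets. It had 1288 CPM in MR3101 and 57.6 to 421 CPM in the other restricted libraries, against 85.3 to 563 CPM in controls. Its log2 fold change was 0.70 with 11 libraries (95% interval −0.98 to 2.37) and −0.55 without MR3101 (95% interval −1.85 to 0.76).

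Of 32 atrophy and autophagy genes, 1 was higher and 0 lower at an unadjusted p under 0.05 in each set. Of 32 genes of growth, insulin and IGF1 signalling, 2 were higher and 0 lower with 11 libraries, and 1 higher and 1 lower without MR3101. Fbxo32 and Trim63, the ubiquitin ligases of muscle atrophy, had log2 fold changes of −0.52 and −0.29 with 11 libraries. Without MR3101 these were −0.25 (95% interval −0.70 to 0.21) and −0.07 (95% interval −0.48 to 0.34). Mstn, the growth inhibitor myostatin, had 0.23 with 11 libraries and −0.08 without MR3101 (95% interval −0.53 to 0.37). Igf1, the growth factor, had −0.30 with 11 libraries and −0.04 without MR3101 (95% interval −0.48 to 0.40). Socs2, an inhibitor of growth hormone signalling, had 449, 65.1, 154, 104 and 80.7 CPM in restricted libraries and 44.4 to 81.9 CPM (median 66.4) in controls, with a log2 fold change of 1.41 with 11 libraries and 0.65 without MR3101 (95% interval 0.12 to 1.18). MR3102 and MR3116 lay inside the control range. Cytosolic ribosomal genes had a median of 0.19 over 40 genes without MR3101, with 7 below 0 and 0 past an unadjusted p of 0.05. With 11 libraries the median was −0.01, with 23 below 0 and 4 higher at that level. Over all genes tested, 5245 of 11395 were below 0 without MR3101 and 6009 of 11225 with 11 libraries.

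**Figure D3:**
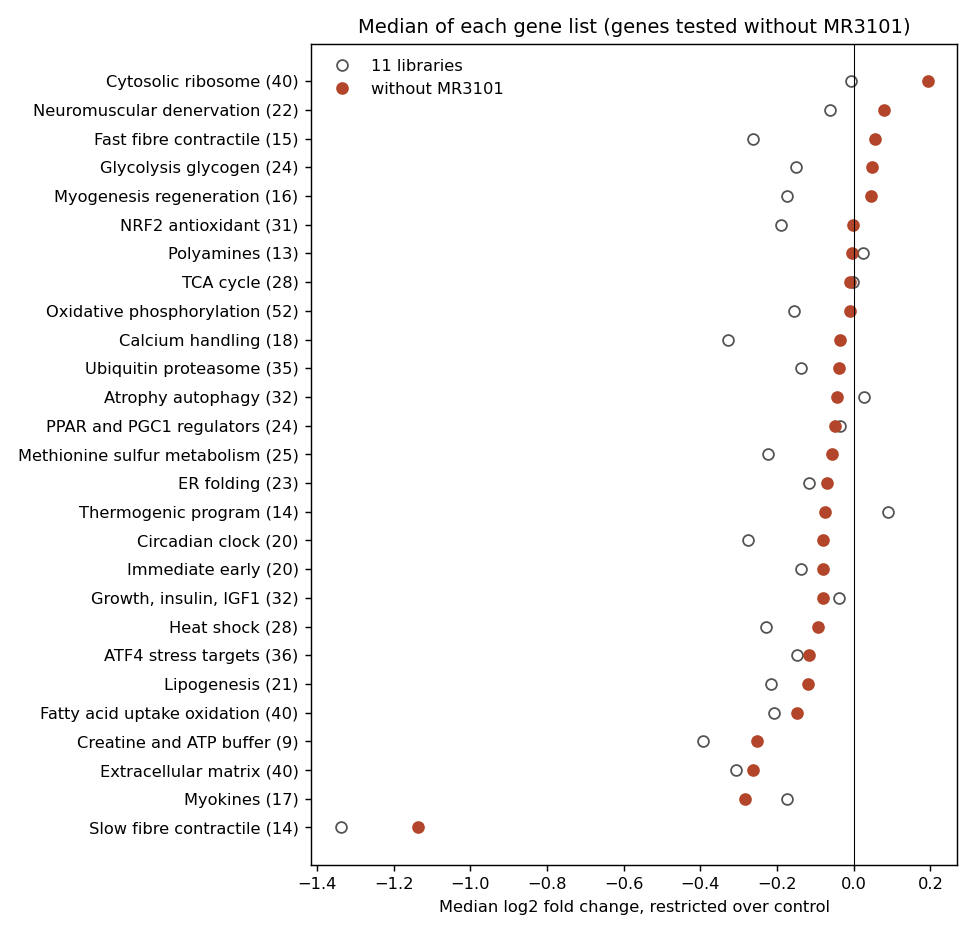
Median log2 fold change (restricted over control, horizontal axis) of each of 27 pathway lists, ordered by the value without MR3101 (filled points); open points include all 11 libraries and the number of genes tested is in parentheses. The slow-fibre list lies farthest from 0, at −1.14 without MR3101 and −1.34 with it. The lists were chosen with earlier results of these data known.

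Among other genes with the smallest unadjusted p, Npr3, the clearance receptor of natriuretic peptides, had 7.46, 7.53, 8.93, 14.5 and 8.48 CPM in restricted libraries and 12.3 to 47.4 CPM (median 25.8) in controls, with only MR3109 inside the control range. The log2 fold change was −1.57 with 11 libraries and −1.49 without MR3101 (95% interval −2.32 to −0.67). Heat-shock genes gave 2 of 28 lower at an unadjusted p under 0.05 without MR3101. These were Hspa1a, an inducible HSP70, at −1.28, and Hspb7, a small heat-shock protein of heart and muscle, at −1.02. With 11 libraries they had −0.96 and −1.35. Abra, which encodes an actin-binding protein of muscle, had 96 to 136 CPM in the restricted libraries other than MR3101 and 163 to 265 CPM in controls, with a log2 fold change of −0.54 with 11 libraries and −0.74 without MR3101. Klk10, a kallikrein-related peptidase, had 7.26 CPM in MR3101, 0.901 to 1.4 CPM in the other restricted libraries and 2.47 to 3.64 CPM in controls. The groups did not overlap without MR3101, where its log2 fold change was −1.44 (adjusted p 0.9999 in edgeR and 0.0502 in DESeq2). With MR3101 it was −0.46. On the higher side, the 11 libraries did not overlap for Pim2, a kinase of the PIM family, and Nfatc3, a calcineurin-dependent transcription factor. Klk10, Pim2 and Nfatc3 were named for their small p. The share of all genes whose groups do not overlap is not given here. Pim2 had 21.98, 3.42, 3.54, 7.36 and 3.85 CPM in restricted libraries and 2.02 to 3.04 CPM in controls, with a log2 fold change of 1.66 with 11 libraries and 0.88 without MR3101 (95% interval 0.29 to 1.48). Nfatc3 had 17.2 to 20.1 CPM in restricted and 11.4 to 14.8 CPM in control libraries, a log2 fold change of 0.50 with 11 libraries and 0.49 without MR3101 (95% interval 0.15 to 0.83).

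Several of the genes higher in restricted muscle without MR3101 were genes of lymphocytes, and for these 1 animal held the difference. Hmha1, a gene of blood cells, had 41.6, 5.71, 6.89, 143 and 5.48 CPM in restricted libraries and 4.21 to 7.39 CPM in controls. Sash3, a lymphocyte adaptor, had 36.0 CPM in MR3109, 0.393 to 1.49 CPM in the other restricted libraries and 0.701 to 2.26 CPM in controls. Fyb, a T cell adaptor, had 22.8 CPM in MR3109 and 1.21 to 3.14 CPM in the other restricted libraries, against 0.701 to 2.0 CPM in controls. Their log2 fold changes were 2.89, 2.64 and 2.39 with 11 libraries and 2.91, 2.98 and 2.58 without MR3101. Without MR3109 as well they were 0.15, 0.17 and 0.41. Summed over 10 lymphocyte markers, MR3109 had 507 CPM, against 2.17 to 4.32 CPM in the other restricted libraries and 1.23 to 8.28 CPM in controls. Summed over 12 macrophage markers it had 405 CPM, against 83.4 to 141 CPM in the other restricted libraries and 87.6 to 159 CPM in controls.

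**Figure D4:**
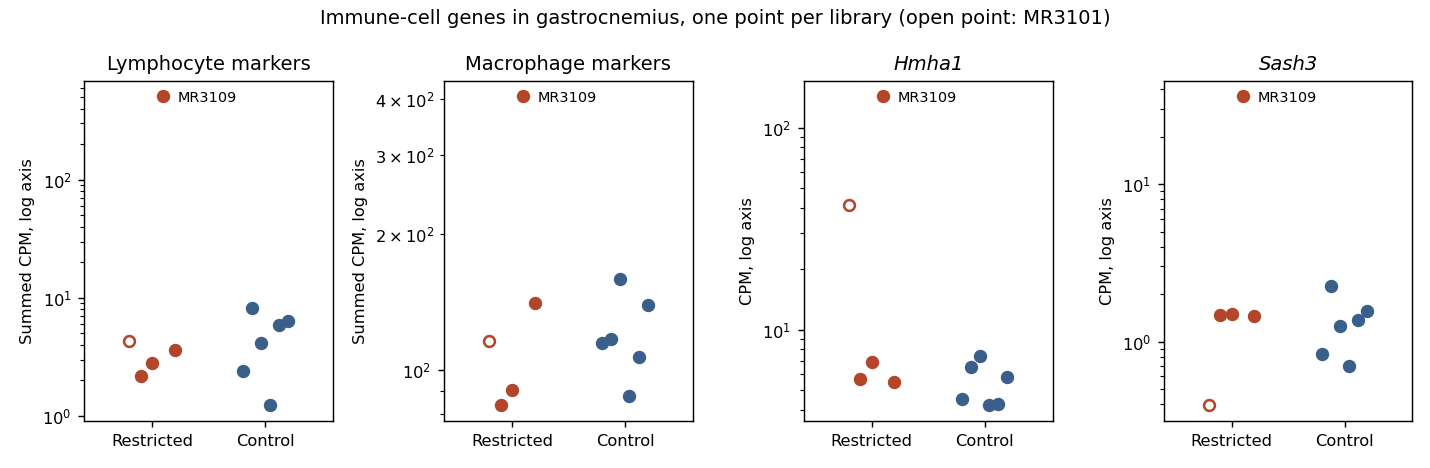
Summed CPM of lymphocyte and macrophage markers, and CPM of Hmha1 and Sash3, in each gastrocnemius library (log axes), restricted on the left and control on the right; MR3101 is the open point. MR3109 lies at 507 CPM for lymphocyte markers, where the other 10 libraries lie between 1.23 and 8.28 CPM.

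The effect of the diet in muscle was then set against its effect in the other tissues of the same mice, in 1 model over all 47 libraries and 13541 genes. The gene with the lowest adjusted p against liver was Asns. In liver Asns rose: it had 206 to 320 CPM in restricted mice (median 274) and 5.97 to 49.2 CPM in control mice (median 20.4). In muscle on the same scale it had 29.98, 5.14, 10.3, 7.2 and 8.69 CPM in restricted mice and 6.80 to 13.0 CPM in control mice (median 10.1). The log2 fold change was 0.30 ± 0.39 (SE) in muscle and 3.36 ± 0.41 (SE) in liver. The difference, muscle minus liver, was −3.06 ± 0.56 (SE), with an adjusted p of 0.0272 (edgeR's quasi-likelihood test with Benjamini-Hochberg adjustment). With each animal as a block, pairing the tissues of a mouse, it was −3.45 with an adjusted p of 0.00581 in edgeR. Without the 4 libraries that stood apart in muscle and IWAT it was −3.67 with an adjusted p of 3.84e-05 in edgeR. Over 17 alternatives the adjusted p of edgeR or limma lay between 3.84e-05 and 0.145, past the threshold in 10. It missed the threshold in a fit of the 2 tissues alone (0.145) and when MR3102, MR3104, MR3116, CON3103, CON3107 or CON3115 was left out (0.0542 to 0.124). The 42 ATF4 targets tested in this model had 0 members past the threshold in muscle (0% of all genes higher), where their median was −0.13. In liver 4 were higher, against 14 of all 13541 genes (0.103%; 15 lower, 0.111%), and the median was 0.46. In BAT 0 passed (22 of all genes higher, 0.162%, and 19 lower, 0.14%), with a median of 0.04, and in IWAT 0 were higher (266 of all genes, 1.96%) and 2 lower (180 of all genes, 1.33%), with a median of 0.44. For Asns the difference, muscle minus BAT, was 0.05 ± 0.54 (SE), and muscle minus IWAT it was −0.05 ± 0.54 (SE), neither past the threshold.

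**Figure D5:**
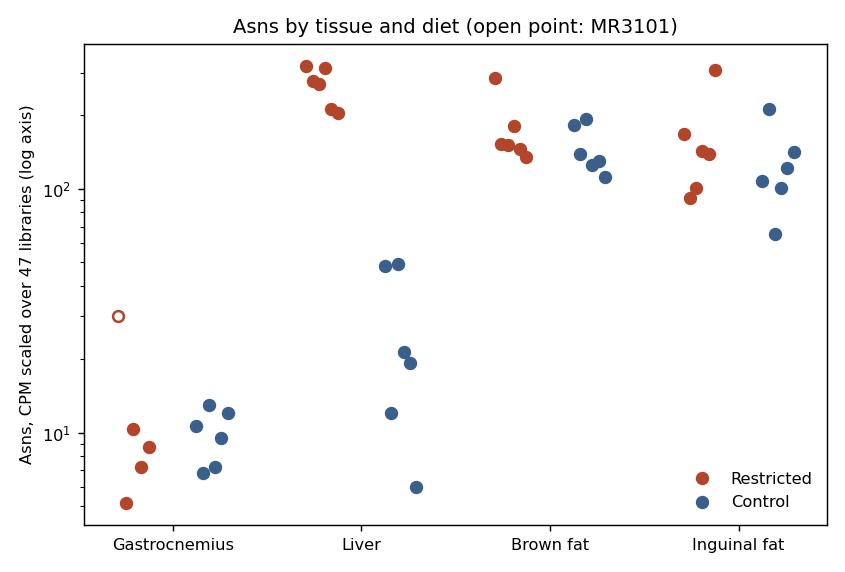
Asns in each library of the 4 tissues (CPM scaled over 47 libraries, log axis), restricted left of control in each tissue; the open point is MR3101. Liver libraries lie at 206 to 320 CPM in restricted mice and 5.97 to 49.2 CPM in controls, and muscle libraries at 5.14 to 29.98 CPM in restricted mice and 6.80 to 13.0 CPM in controls.

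Of 13541 genes, 4 (0.0295%) had a different effect of the diet in muscle and liver, 2 with a higher (0.0148%) and 2 with a lower difference (0.0148%). With the animal as a block the count was 1 (0.00738%), Asns. Without the libraries that stood apart it was 17 (0.124%), 4 higher (0.0291%) and 13 lower (0.0945%), which included all 4. Htatip2 had 5.41 to 17.4 CPM in restricted and 13.0 to 20.1 CPM in control muscle, with a difference of −1.80 from liver (adjusted p 0.0298 in edgeR, 0.136 with the animal block). Scara5, a ferritin receptor, had 29.3 to 52.4 CPM in restricted and 35.4 to 78.9 CPM in control muscle. In liver it had 0.137 to 2.28 CPM in restricted and 2.98 to 16.8 CPM in control mice, and its difference was 3.03 (adjusted p 0.0298 in edgeR, 0.136 with the animal block). Cml3 was at 0 to 0.483 CPM in restricted and 0 to 0.567 CPM in control muscle, near the limit for 0 counts. Its difference rests mostly on liver values, and its muscle fold change on few counts.

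Against IWAT, 59 of 13541 genes (0.436%) had a different effect of the diet in muscle, 44 with a lower (0.325%) and 15 with a higher difference (0.111%). With the animal as a block, pairing the tissues, the count was 29 (0.214%), 28 of them lower (0.207%). Without the libraries that stood apart it was 131 (0.953%), 119 lower (0.865%) and 12 higher (0.0873%), and 43 of these were among the 59. A fit of the 2 tissues alone called 0. Leaving out MR3101, CON3103, CON3107, CON3114 or CON3115 gave 34, 29, 35, 17 or 13, and leaving out MR3104 gave 177. Slc4a4, a sodium bicarbonate cotransporter, had 10.01 to 17.2 CPM in restricted and 12.0 to 21.1 CPM in control muscle. In IWAT it had 40.1 to 112 CPM in restricted and 5.41 to 18.9 CPM in control mice. Its log2 fold change was −0.17 in muscle and 2.49 in IWAT, a difference of −2.67 ± 0.40 (SE, adjusted p 0.000523 in edgeR, Benjamini-Hochberg). Lbp, the lipopolysaccharide-binding protein, had 19.1 to 37.3 CPM in restricted and 25.5 to 64.6 CPM in control muscle, and 18.9 to 48.5 CPM in restricted and 130 to 382 CPM in control IWAT, a difference of 2.25 (adjusted p 0.00749 in edgeR).

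Gyk, the glycerol kinase, and Slc25a32, a mitochondrial folate carrier, had differences from IWAT of −2.83 and −1.64 (adjusted p 0.00749 and 0.00327 in edgeR). Slc25a34, a mitochondrial carrier, and Rtn4ip1, a mitochondrial reductase, had −5.26 and −2.52 (adjusted p 0.00749 for each in edgeR). The size for Slc25a34 rests on values near 0: control IWAT had 0 to 3.15 CPM (median 0.258). It was also at 0 in MR3101 muscle and MR3116 IWAT. Without the libraries that stood apart, its difference was −4.68. Ppargc1a had a log2 fold change of −0.43 in muscle and 1.26 in IWAT, a difference of −1.68 (adjusted p 0.00945 in edgeR). Against BAT, 0 of 13541 genes (0%) passed, with 1826 at an unadjusted p under 0.05 by edgeR. Other fits called 1 (limma voom) and 48 (another scaling), and leaving out MR3102, MR3104 or MR3116 gave 174, 273 or 211.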

How the data were processed

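Gene-level raw tag counts of SOLiD SAGE libraries were analysed as deposited. Per the labels' protocols, the authors made the libraries from 7 to 12 ng of RNA and counted fragments that mapped to RefSeq genes. The submitters' processing notes name mm10, GRCm38.p1 and DESeq; no aligner is named in the sources used here. The second muscle table holds each count divided by a size factor, a normalized signal deposited by the authors, used in an alternative. Genes were filtered with filterByExpr (minimum count 10), scaled by TMM and tested with edgeR 4.0.16 (quasi-likelihood, R 4.3.3) on diet, with all 11 muscle libraries and without MR3101, whose median Spearman correlation was under 0.8. Fold changes are log2 values of the edgeR fit with its default prior count, and CPM are TMM-scaled. A prior count of 2 was used for log2 CPM only. The 4-tissue model had a term for each tissue and diet. limma 3.58.1 and DESeq2 1.42.0 were alternatives. The edgeR fit of diet in muscle was tested on simulated counts with a fixed dispersion and no library that stands apart. The 4-tissue model and the alternatives were not simulated. Gene lists, members and tests were chosen with earlier results of these data known. Named genes are those with the smallest p in each direction, whose mean reached 20 counts and whose restricted libraries all lay on one side of the control mean, up to 4 genes per list by p, all fibre genes and a fixed set; predicted genes were counted, not named. Tags and coordinates come from GENCODE vM1 transcripts and RefSeq's GRCm38.p6 table. Counts are reads, not molecules, so limits for 0 counts cover counting error only.

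The animal numbers in the titles pair the tissues of a mouse. Deviations from the group mean were correlated between muscle and another tissue of the same animal. The mean was 0.034 for liver (−0.055 to 0.184), −0.002 for BAT (−0.176 to 0.273) and −0.076 for IWAT (−0.64 to 0.214). Between different animals on the same diet it was −0.007, 0 and 0.061. The own animal correlated best in 5, 2 and 0 of 11 pairs, so the pairing rests on the titles and not on these values. Within muscle each animal has 1 library, so nothing can be blocked.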

Additional observations from a re-analysis of the deposited data

Results flagged for a closer look

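In groups of 5 or 6 libraries, 188 sets of values were looked at and 29 had a library far from the others by Dixon's criterion. Its rate of about 1 of 20 groups by chance assumes independent, normally spread values. These sets share libraries and include genes near 0 counts, so 29 cannot be compared with that rate. MR3101 was that library in 17 and MR3109 in 8, and MR3116, CON3103, CON3106 and CON3114 in 1 each. MR3101 had 11144 genes detected and a median Spearman correlation of 0.582. In summed CPM of markers it had 496.9 for endothelial cells, 3770.6 for fibroblasts and tendon, 244.3 for hepatocytes and 0.196 for erythrocytes. In CPM it had 21.98 for Pim2, 196.1 for Tgif1, 449.2 for Lonp1, 247.7 for Ctsc, 278.5 for Cdc14a, 449.4 for Socs2, 953.4 for Esyt2, 7.26 for Klk10, 3.14 for Pitx1, 12.95 for Hspa1a and 28.26 for Asns. MR3109 had summed CPM of 507.2 for lymphocyte and 404.6 for macrophage markers. In CPM it had 142.7 for Hmha1, 22.83 for Fyb, 36.04 for Sash3, 45.88 for Tbc1d10c, 11.34 for Bach2 and 14.49 for Npr3. Tecrl was at 0 CPM in MR3116, Chac1 at 46.69 CPM in CON3103, Dcaf13 at 0.502 CPM in CON3106 and Fgf21 at 0.0915 CPM, a single count, in CON3114.

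The effect of the diet differed between muscle and liver, by the interaction term of the 4-tissue model, for 4 genes. The differences in log2 fold change, muscle minus liver, were −3.06 for Asns, −1.80 for Htatip2, 5.75 for Cml3 and 3.03 for Scara5. For Cml3 the muscle counts were few and near the limit for 0 counts. It differed between muscle and IWAT for 59 genes, among them Slc4a4 (−2.67), Slc25a32 (−1.64), Gyk (−2.83), Lbp (2.25), Slc25a34 (−5.26) and Rtn4ip1 (−2.52). For Slc25a34 most control IWAT values were near 0.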

How the results depend on the processing

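The count of genes past the threshold in muscle was 0 with DESeq2, limma voom with and without quality weights, other scalings, other filters, the authors' normalized values plus 1 or 8, and each library left out, with and without MR3101. The term for MR3104, CON3114 and CON3115, run without MR3101, was chosen after seeing the data and also gave 0. Named genes changed sign in 61 of 1441 values (18 of 73 genes) with 11 libraries and in 43 of 1456 (16 of 74 genes) without MR3101. The slow-fibre median stayed below 0, at −2.01 to −0.85. For muscle against liver, 4 calls became 1 with the replicate block of animals, 7 with voom, 2 in a fit of the 2 tissues, 17 without the libraries that stood apart, and 0 to 5 with each muscle animal left out (0 without MR3102, MR3116, CON3103, CON3107 or CON3115, 1 without MR3104 or CON3112). Against BAT, 0 calls became 1 with voom, 48 with RLE factors and 0 to 273 with an animal left out. Against IWAT, 59 became 29 with the block, 107 with voom, 16 with no filter, 0 in a fit of the 2 tissues, 131 without the libraries that stood apart and 13 to 177 with an animal left out. The cause was not tested. Depth of 7756320 to 12829112 tags left a library at 0 counts compatible with up to 0.225 to 0.589 CPM.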
